A study of Arabidopsis thaliana with 30 samples.

Results

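The genes described here are those whose transcripts were lower in long days than in short days after transfer to air, at both times and in both genotypes. A probe set, the group of short probes that reads 1 transcript on the array, was included if its mean log2 signal was lower by at least 0.8, which is 1.74-fold, in all 4 long-day minus short-day comparisons: Col-0 and cat2-1, each after 2 and after 4 days. Of 22746 probe sets 99 passed, and 11 of these were left out by name (COR15A, COR15B, COR27, COR47, LTI30, HIS1-3, UGT76E11, UGT85A5, AT1G16850, AT1G71000 and AT5G15190), leaving 88. By GEO's annotation of the array 43 of the 88 read exactly 1 gene and 4 read several, while 41 were absent from it. The 43 read 42 genes, since AT1G31690 has a pair of probe sets. Only these are called by gene, and the others are given by probe set identifier.

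The 30 arrays measured RNA from rosette leaves of Arabidopsis thaliana, in 10 groups of 3. Col-0 is the wild type, and cat2-1 (cat2 for short) is a mutant of CATALASE 2 represented here by that single allele. All plants spent 5 weeks in soil in short days (8 h light and 16 h dark) with CO2 at 3000 ppm. They were sampled then (high CO2), or moved to air with 400 ppm and kept in short days for 2 days (SD2) or 4 days (SD4), or in long days with 16 h of light and 8 h of dark for the same times (LD2 and LD4). RNA on an array came from 2 leaves, pooled from separate plants, and the 3 pools of a group are biological replicates. All leaves were taken 7 h into the light, when 1 h of light was left in short days and 9 h in long days. Time of the light period still to come, total light received and day length therefore cannot be told apart. No group had long days at high CO2. The treatment label of the Col-0 high-CO2 arrays named another concentration than the growth protocol, and the protocol value is used here.

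Day length reaches leaf transcripts by several known routes. The circadian clock times transcription against dawn and dusk, so a sample taken at a fixed hour of light meets the clock at another phase when the night is shortened. A longer day also gives more photosynthate and a shorter night of starch use, and it lengthens exposure to photorespiration in air. Photorespiration makes hydrogen peroxide in peroxisomes, which catalase removes, and high CO2 suppresses it. A catalase 2 mutant is therefore known to be under oxidative load in air and not at high CO2.

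Arrays of a group correlated at 0.9845 to 0.9965 over all probe sets. Median 3′ minus 5′ differences of the actin control were 2.20, 2.14 and 2.05 at high CO2, in short days and in long days, and those of GAPDH 0.92, 0.93 and 0.93. The leaf marker RCA, which codes for Rubisco activase, was at a log2 signal of 13.94 to 14.15 in every group, and the root marker EXPA7 at 4.86 to 5.05. Among guard cell markers only FAMA had a probe set of its own (6.59 to 7.33), and phloem, trichome and flower markers had none in this annotation. In bulk leaf RNA, fewer cells of a type and less RNA per cell cannot be told apart.

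Single arrays stood apart in the members as a set. In Col-0 at SD2, replicate 2 was above its group mean for 4 of 88 members and replicate 3 for 74. At SD4 replicate 2 of Col-0 was above it for 12. In cat2, replicate 1 was above the group mean for 78 members at high CO2 and for 71 at SD2, where replicate 3 was above it for 15. Over all probe sets these shares lay between 43.1% and 58.2% on every array.

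The members' long-day minus short-day log2 differences had a median of −1.50 in Col-0 after 2 days (range −3.32 to −0.81) and −1.29 after 4 days (−3.72 to −0.82). In cat2 the medians were −1.28 (−3.92 to −0.80) and −1.57 (−3.93 to −0.89). Over all probe sets the medians were 0.003, 0.01, 0.03 and 0.026 in the same order. The members were selected on these values, which carry no test. A difference of −0.8 or lower was held by 1.57%, 1.96%, 2.86% and 2.26% of all probe sets. The 3 long-day arrays all lay below the 3 short-day arrays for 86, 86, 85 and 87 of 88 members, against 15.4%, 12%, 15.3% and 12.5% of all probe sets. For 68 of 88 members all 12 long-day arrays of both genotypes and times lay below all 12 short-day arrays, as they did for 1.22% of all probe sets. The median log2 signal of the 88 was 8.80 and 8.59 in Col-0 at SD2 and SD4, and 7.25 and 7.22 at LD2 and LD4. In cat2 it was 8.88, 8.75, 7.24 and 6.87 in the same order.

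**Figure D1:**
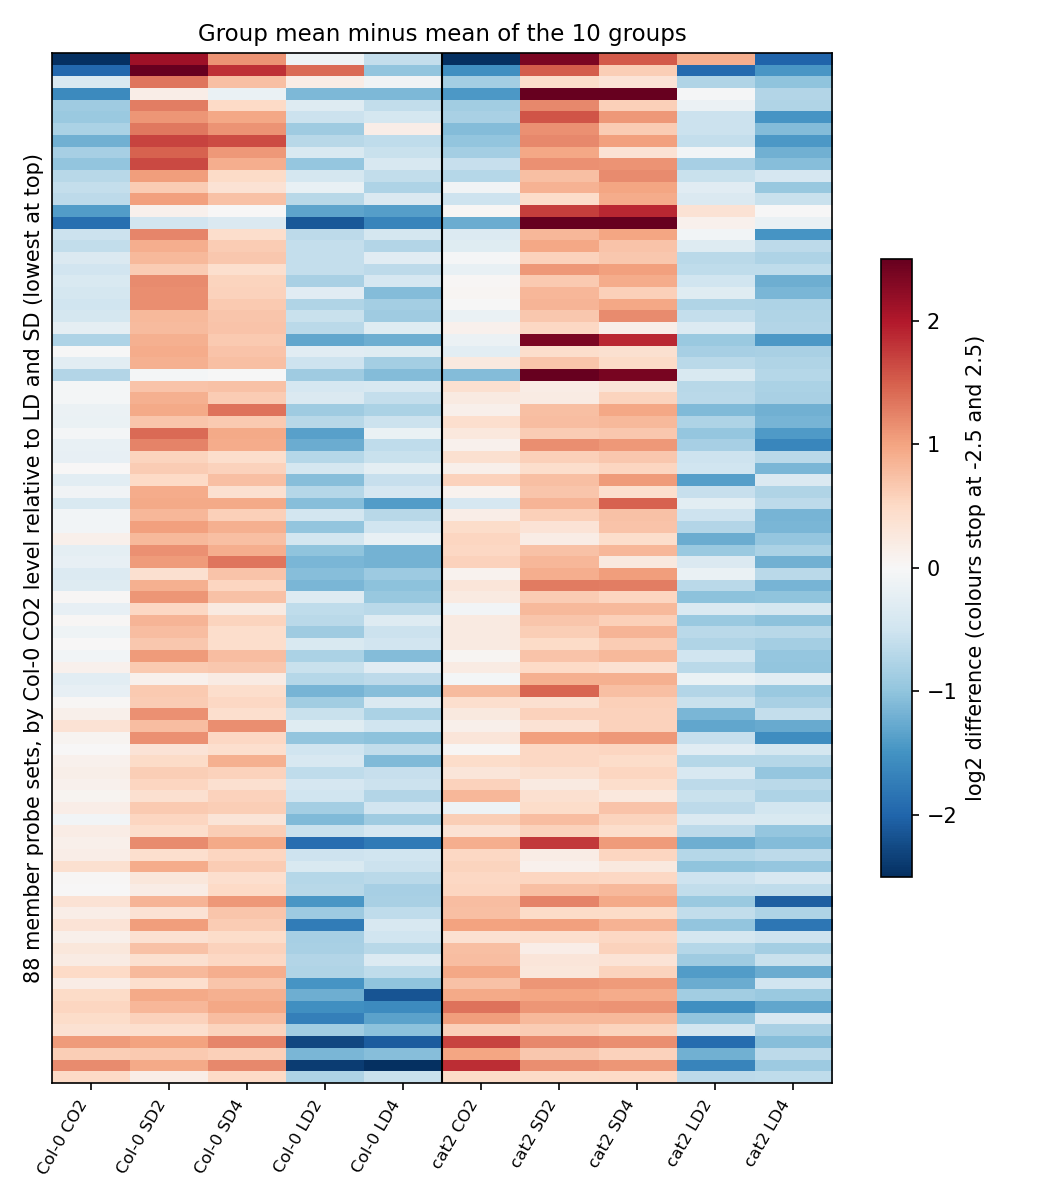
Mean log2 signal of each of the 88 members (rows) in each of the 10 groups of 3 arrays (columns), minus that member's mean over the groups, in log2 units, with colours ending at −2.5 and 2.5. Short-day columns are high and long-day columns low in both genotypes, as the choice of members requires, while the 2 high-CO2 columns run from low at the top to high at the bottom.

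Close to the threshold, AT4G30650 (−0.80 in cat2 after 2 days), AT3G59350 (−0.81, same comparison) and probe set 245501_at (−0.81 in Col-0 after 2 days) were just inside by their smallest difference. Just outside were 263951_at (−0.79 in Col-0 after 4 days), AT5G61820 (−0.79, same comparison) and AT4G24970 (−0.79 in cat2 after 2 days).

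The member genes lay on all 5 chromosomes (14, 7, 8, 6 and 7 genes on chromosomes 1 to 5), and no 2 were within 10 protein-coding genes of each other in the TAIR10.1 annotation. They fell into broad roles, assigned after their values had been seen and not tested. Of the 42 genes 10 code for secreted or cell wall proteins and 7 for metabolic proteins, in each case mostly enzymes. Transport or membrane proteins come from 5, and signalling or scaffold proteins from 5. Another 3 code for transcription and clock proteins and 3 for small proteins of defence families. For 9 no role is given.

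The secreted and cell wall proteins held the largest difference. AT1G31690 codes for a copper amine oxidase, a type of enzyme that oxidises amines and releases hydrogen peroxide. Its probe set 246573_at read 8.45, 7.34 and 7.75 on the SD2 arrays of Col-0, 8.34, 7.5 and 8.35 at SD4, 3.98, 4.99 and 4.72 at LD2, and 4.52, 5.22 and 4.52 at LD4. In cat2 it read 7.84, 8.04 and 8.27 at SD2, 7.74, 8.12 and 8.15 at SD4, 4.67, 4.95 and 5.15 at LD2, and 4.40, 6.31 and 6.59 at LD4. Every long-day array lay below every short-day array, and replicates 2 and 3 of cat2 at LD4 were the highest of the long-day arrays. The mean of the 4 differences was −2.99, a level 7.94-fold lower, and the other probe set of the gene, 246603_at, gave −2.97. That probe set was at 8.63 to 9.71 (median 9.22) in short days and 5.03 to 6.45 (median 5.56) in long days in Col-0, and at 8.94 to 9.51 (median 9.40) and 5.76 to 7.98 (median 6.63) in cat2.

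Others of this role differed less. AT1G32860, of the beta-1,3-glucanase family that acts on callose, was at 7.84 to 8.97 (median 8.18) on the 6 short-day arrays of Col-0 and 6.14 to 6.73 (median 6.55) on the 6 long-day arrays. In cat2 it was at 8.44 to 9.06 (median 8.90) and 6.17 to 7.05 (median 6.63), again without overlap. AT5G07030, an aspartyl protease family gene, was at 7.93 to 8.93 (median 8.53) and 5.49 to 6.86 (median 6.30) in Col-0. In cat2 its short-day range of 8.06 to 8.86 only just cleared its long-day range of 6.38 to 8.04. AT1G57590, a pectin acetylesterase gene, had a mean difference of −1.52, and its values are given with the genotypes below. The other 6, AT5G59130 (subtilase family, −1.17), AT1G27200 (glycosyltransferase family, −1.06), AT1G71695 (class III peroxidase, −1.01), AT2G22900 (galactosyltransferase family, −1.01), AT4G33490 (aspartyl protease family, −1.01) and AT3G06035 (a GPI-anchored glycoprotein, −0.97), had smaller mean differences.

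Among signalling and scaffold genes, ZW9, which codes for a TRAF-like protein, had the largest difference, at −2.73 or 6.62-fold lower. It was at 8.82 to 10.18 (median 9.51) on the short-day arrays of Col-0 and 6.19 to 7.17 (median 6.47) on the long-day arrays. In cat2 it was at 9.38 to 10.38 (median 9.62) and 6.09 to 8.19 (median 7.36). AT5G59670, a leucine-rich repeat receptor kinase gene, was at 8.59 to 9.35 (median 9.03) in short days and 7.14 to 7.87 (median 7.69) in long days in Col-0, and at 8.20 to 8.92 (median 8.50) and 6.28 to 7.12 (median 6.81) in cat2. IQD23, whose family binds calmodulin, differed by −1.36, AT1G52770 of the NPH3 family by −1.23, and the protein kinase gene AT3G59350 by −0.91, the smallest mean difference of the 88.

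Of the metabolic proteins AT3G21950, a methyltransferase gene, differed most. In Col-0 it read 8.09, 7.30 and 7.96 at SD2, 8.00, 7.43 and 8.31 at SD4, 5.03, 5.56 and 5.67 at LD2, and 5.34, 5.47 and 5.33 at LD4. In cat2 it read 8.00, 8.13 and 8.00 at SD2, 7.90, 7.88 and 8.41 at SD4, 5.41, 5.51 and 5.35 at LD2, and 4.83, 5.75 and 6.34 at LD4. No long-day array came near the short-day arrays, and the mean difference was −2.48, or 5.60-fold lower. AT1G69523, also a methyltransferase gene, was at 7.93 to 8.74 (median 8.19) in short days and 6.20 to 7.44 (median 6.70) in long days in Col-0, and at 8.12 to 8.89 (median 8.50) and 6.10 to 7.38 (median 6.74) in cat2. It differed by −1.61, the phospholipase C gene AT3G55940 by −1.41, and AT5G61290, a flavin-containing monooxygenase gene, by −1.06. GSTU26, a tau-class glutathione transferase, differed by −1.04 and AT1G18360, an alpha/beta hydrolase gene, by −1.01. AT3G55760 codes for LESV, a protein of the starch granule. It was at 8.69 to 9.29 (median 8.97) in short days and 7.60 to 8.31 (median 7.91) in long days in Col-0, and at 8.74 to 9.13 (median 8.98) and 7.44 to 7.97 (median 7.60) in cat2.

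Transport and membrane members included SWEET4, of the SWEET family of sugar transporters. It was at 7.87 to 9.25 (median 8.56) in short days and 6.24 to 7.47 (median 7.02) in long days in Col-0, and at 8.05 to 8.93 (median 8.29) and 5.96 to 7.54 (median 6.93) in cat2. AT1G51090, with a heavy metal-associated domain, was at 10.25 to 11.25 (median 10.56) and 8.14 to 9.13 (median 8.51) in Col-0, and at 10.46 to 10.92 (median 10.60) and 7.21 to 9.35 (median 8.29) in cat2. Neither gene's day-length groups overlapped in either genotype. AT2G41190, an amino acid transporter gene, did overlap in cat2, where it was at 7.73 to 9.75 (median 8.70) in short days and 6.66 to 8.52 (median 7.23) in long days. AT2G16990, a major facilitator family gene, differed by −1.53. AT4G30650, which codes for a small RCI2-type membrane peptide, had one of the highest log2 signals (12.62 to 12.94 on all short-day arrays) and differed by −1.17.

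The 3 transcription and clock members were COR28, TINY2 and AT4G16750. COR28, annotated as AT4G33980, codes for a small protein that acts with the clock and in cold responses. It read 9.77, 9.88 and 10.28 at SD2 in Col-0, 9.70, 9.67 and 9.64 at SD4, 7.95, 8.07 and 8.32 at LD2, and 8.18, 7.95 and 7.31 at LD4. In cat2 it read 9.75, 9.43 and 9.70, then 9.90, 9.62 and 9.65, then 8.54, 8.29 and 8.42, then 8.20, 7.99 and 7.64 in the same order. All 12 short-day arrays lay above all 12 long-day arrays. TINY2 and AT4G16750 code for AP2-type factors related to the DREB proteins of cold and drought responses. TINY2 was at 6.86 to 7.59 in short days and 5.07 to 5.98 in long days in Col-0, and at 6.48 to 7.26 and 4.89 to 5.74 in cat2. AT4G16750 was at 6.76 to 7.72 and 5.34 to 5.82 in Col-0, and at 6.74 to 7.72 and 5.04 to 6.35 in cat2.

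The small proteins of defence families were AT4G36010, thaumatin-like (mean difference −1.98), AT2G43550, defensin-like (−1.45), and the defensin LCR69 (−1.24). AT4G36010 was at 9.27 to 10.31 in short days and 7.41 to 8.23 in long days in Col-0, and at 9.80 to 10.07 and 6.56 to 8.62 in cat2. LCR69 was at 11.54 to 12.18 and 9.97 to 10.74 in Col-0, and at 11.86 to 12.33 and 10.13 to 11.68 in cat2, so in cat2 its ranges were close together. Of the 9 genes with no role given AT1G27030 differed most (−1.88), then AT3G01960 (−1.64), AT2G22080 (−1.41), AT1G68500 (−1.38), AT4G27657 (−1.37), AT5G01790 (−1.29), AT1G19960 (−1.27), AT3G28530 (−1.18) and AT2G17300 (−0.98). AT1G27030 was at 7.74 to 8.74 (median 8.51) in short days and 5.95 to 7.04 (median 6.67) in long days in Col-0, and at 8.69 to 9.06 (median 8.98) and 6.16 to 8.13 (median 6.63) in cat2. AT3G01960 was at 6.41 to 6.80 (median 6.66) and 4.54 to 5.28 (median 4.83) in Col-0, and at 6.17 to 6.95 (median 6.64) and 4.77 to 6.05 (median 4.81) in cat2. The day-length ranges of neither gene overlapped.

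**Figure D2:**
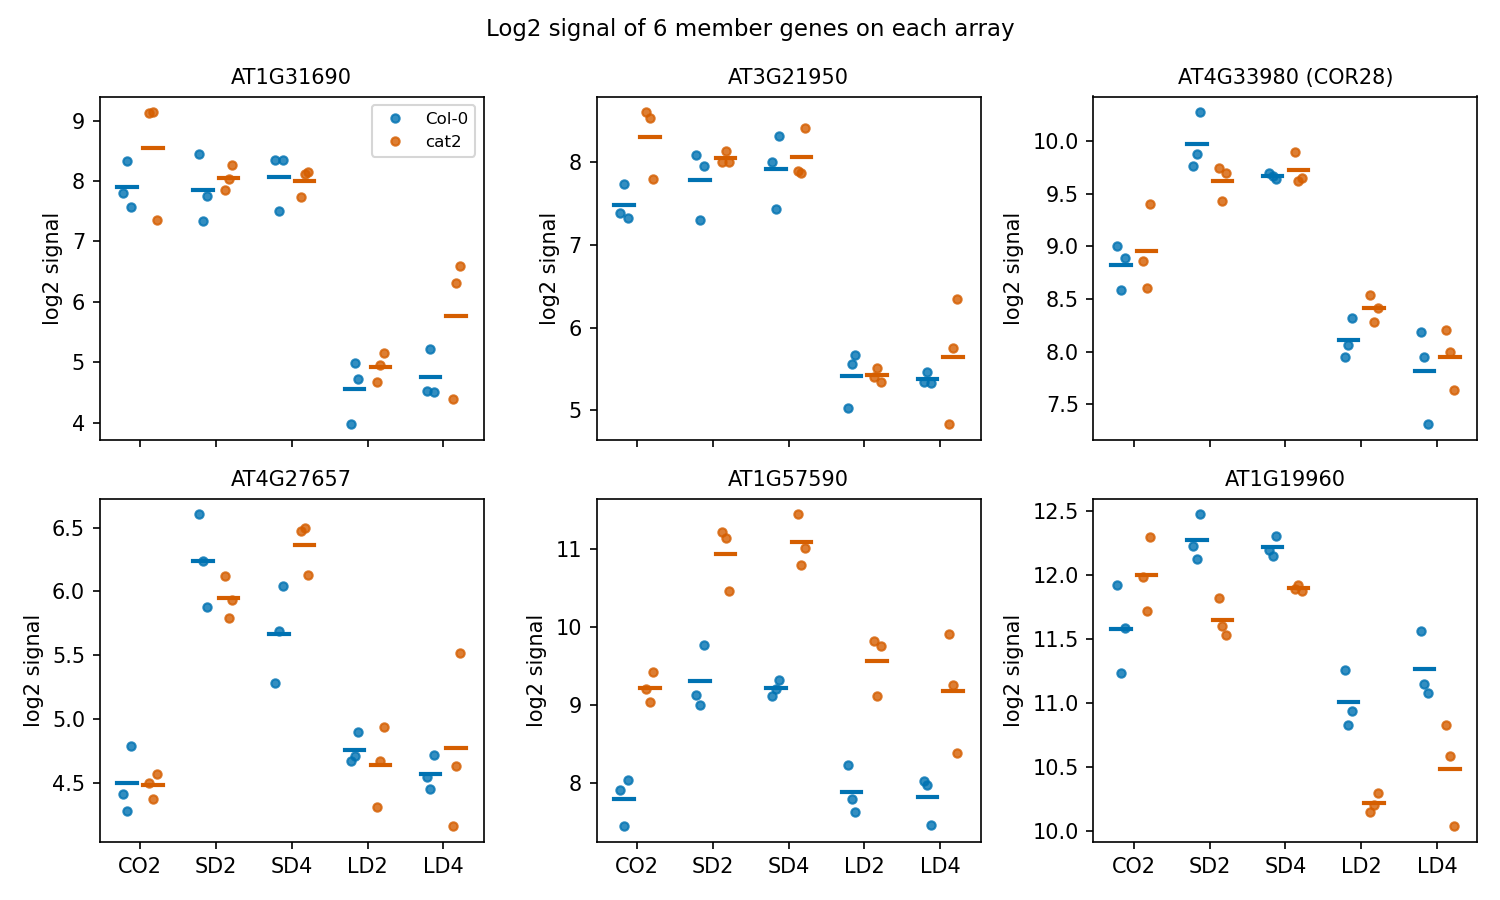
Log2 signal of 6 member genes on each of the 30 arrays (points) with the mean of each group of 3 (lines), for Col-0 (blue) and cat2 (orange). The top row and AT4G27657 show short-day arrays above long-day arrays in both genotypes, with high-CO2 arrays near the short-day level for AT1G31690 and AT3G21950 and near the long-day level for AT4G27657, and cat2 lies above Col-0 in every condition for AT1G57590. For AT4G27657 the high-CO2 and long-day levels are as low as that of the root marker EXPA7.

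Averaged over both times, the size of the day-length difference was similar in the genotypes for most members. It was within 0.5 log2 units of each other in Col-0 and cat2 for 73 of 88, larger in cat2 for 49 and larger in Col-0 for 39. The average hides members where cat2 minus Col-0 of this difference changed sign between times. It was 0.98 after 2 days and −1.57 after 4 days for 248466_at, and 0.80 and −1.63 for 264511_at. Its median over the 88 was 0.148 after 2 days and −0.208 after 4 days. By the average, the 3 members with the most in excess in cat2 were probe sets 263184_at (by −2.45), 259705_at (−2.28) and 263823_s_at (−2.07). The 3 with the most in excess in Col-0 were AT1G31690 by its probe set 246603_at (1.1), 246922_at (1.03) and 263034_at (0.74). After 2 and 4 days the excess was 0.50 and 1.71 for 246603_at, 1.01 and 1.05 for 246922_at, and 0.31 and 1.17 for 263034_at. The other probe set of AT1G31690, 246573_at, gave 0.16 and 1.07. In cat2 at LD4 replicates 2 and 3 lay above replicate 1, at 7.92 and 7.98 against 5.76 for 246603_at. For 263034_at they were at 9.08 and 9.20 against 6.88. Probe set 246922_at was at 7.47 to 8.77 in short days and 5.40 to 6.04 in long days in Col-0, and at 6.55 to 7.96 and 5.61 to 7.49 in cat2, where the ranges overlapped. Probe set 263034_at was at 9.55 to 10.67 and 6.46 to 8.43 in Col-0, and at 9.85 to 10.57 and 6.88 to 9.20 in cat2. These are combinations of the values used to choose the members and were not tested.

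The high-CO2 arrays were not used in the choice of members, while the short-day and long-day levels in air were. On a scale with the long-day mean at 0% and the short-day mean at 100%, the median high-CO2 level of the 88 was 40.8% in Col-0 (range −124% to 117%) and 75.2% in cat2 (−79.5% to 150.5%). In Col-0 it was at or below the long-day level for 14 members and at or above the short-day level for 2, and in cat2 for 10 and 18. The short-day mean in air was above the high-CO2 mean for 86 members in Col-0 and 70 in cat2, and the long-day mean was below it for 74 and 78. Median differences from high CO2 were 0.77 in short days and −0.59 in long days in Col-0, and 0.37 and −1.01 in cat2. The long-day part of these comparisons changes air and day length together. Members were chosen for high short-day and low long-day levels, which by itself raises short-day and lowers long-day differences from high CO2. These positions and counts are therefore a description, and their shares over all probe sets are not given here.

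The high-CO2 level was tested against the midpoint, the mean of the 4 air groups of a genotype, which is independent of the long-day minus short-day differences. The test was limma over all probe sets and arrays with Benjamini-Hochberg adjustment, and members are said to be called where the adjusted p was below 0.05. In Col-0 24 of 88 members were called (27.3%, against 14.7% of all probe sets), 18 with the midpoint above the high-CO2 level (20.5%, against 7.47%) and 6 below (6.82%, against 7.18%). Only 8 were called without replicate 2 of Col-0 at high CO2. In cat2 47 were called (53.4%, against 21.1%), 15 with the midpoint above (17.0%, against 9.02%) and 32 below (36.4%, against 12.1%). The median midpoint minus high-CO2 difference was 0.13 in Col-0 and −0.36 in cat2, against 0.019 and −0.001 over all probe sets.

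Members called in both genotypes were of both kinds: 6 with the high-CO2 level above the midpoint, and 12 with it below. Shares of all probe sets called in both genotypes are not given here. For AT1G31690 the high-CO2 arrays read 7.80, 8.32 and 7.57 in Col-0 and 9.13, 9.14 and 7.35 in cat2 with probe set 246573_at. In Col-0 these lay among the short-day arrays given earlier, while in cat2 replicates 1 and 2 lay above all the short-day arrays and replicate 3 below them. The midpoint was lower than the high-CO2 level by −1.59 ± 0.37 in Col-0 (SE, adjusted p = 0.00574, limma) and −1.85 ± 0.37 in cat2 (adjusted p = 0.00083). The methyltransferase gene AT3G21950 read 7.39, 7.73 and 7.32 at high CO2 in Col-0 and 8.61, 8.53 and 7.80 in cat2, with midpoint differences of −0.86 ± 0.23 (adjusted p = 0.0137, limma) and −1.52 ± 0.23 (adjusted p = 4.56e-05). AT3G01960, with no role given, read 6.17, 6.90 and 6.76 in Col-0 and 7.24, 6.92 and 6.79 in cat2 at high CO2, with midpoint differences of −0.86 and −1.14. The mean high-CO2 level of all 3 genes was nearer to the short-day than to the long-day mean in both genotypes. In Col-0 their calls were lost without replicate 2 at high CO2 (adjusted p = 0.0628 for 246573_at of AT1G31690, 0.112 for AT3G21950 and 0.0693 for AT3G01960, limma).

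At the other end, AT4G27657 read 4.41, 4.28 and 4.79 at high CO2 in Col-0 and 4.5, 4.37 and 4.57 in cat2. In short days in air it read 6.61, 6.24 and 5.88 (SD2) and 5.28, 5.69 and 6.04 (SD4) in Col-0, and 6.12, 5.79 and 5.93 and then 6.47, 6.50 and 6.12 in cat2. In long days its arrays lay at 4.45 to 4.89 in Col-0 and 4.16 to 5.52 in cat2, which overlapped the high-CO2 arrays. The high-CO2 values and most long-day values were no higher than the group means of the root marker EXPA7 (4.86 to 5.05). Whether they were above the background of the array was not tested. The midpoint was higher than the high-CO2 level by 0.82 ± 0.19 in Col-0 (adjusted p = 0.00701, limma, and 0.0708 without replicate 2 at high CO2) and 0.95 ± 0.19 in cat2 (adjusted p = 0.00109). AT1G68500, also with no role given, was at 6.46 to 7.18 at high CO2, 7.92 to 8.54 in short days and 6.57 to 6.96 in long days in Col-0, and at 6.72 to 7.34, 8.06 to 8.56 and 6.57 to 7.30 in cat2. It had midpoint differences of 0.67 ± 0.13 (adjusted p = 0.00188, limma) and 0.48 ± 0.13 (adjusted p = 0.0113, and 0.164 without replicate 3 of cat2 at high CO2).

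The amino acid transporter gene AT2G41190 was at 7.06 to 7.53 at high CO2, 8.70 to 10.15 in short days and 7.08 to 8.10 in long days in Col-0. Its midpoint difference in Col-0 was 1.24 ± 0.32 (adjusted p = 0.0116, limma), and the call was lost without replicate 2 or 3 at high CO2 (adjusted p = 0.0792 and 0.0503). In Col-0 its long-day arrays overlapped those at high CO2, and all of these lay below its short-day arrays. This gene was called in Col-0 alone. In cat2 its short-day mean was 1.51 and its long-day mean 0.21 above the high-CO2 mean, and the midpoint was not called. Among members without a single gene, 247717_at had the largest such midpoint differences, 3.44 ± 0.59 in Col-0 (adjusted p = 0.000671, limma) and 3.22 ± 0.59 in cat2 (adjusted p = 0.000368). It read 5.86, 4.43 and 6.45 at high CO2 in Col-0, and 7.26 to 8.90 on the long-day arrays, so for this probe set long days in air were also above high CO2.

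A further 26 members were called in cat2 alone with the high-CO2 level above the midpoint. The share of all probe sets with that pattern is not given here. With those called in both genotypes counted as well, the high-CO2 level was above the midpoint in cat2 for 6 of 7 metabolic, 6 of 11 secreted or cell wall, 2 of 5 transport, 1 of 5 signalling, 1 of 3 transcription and clock and 0 of 3 defence probe sets, and for 4 of 9 with no role given. These roles were assigned after the values had been seen and are a description, beside 12.1% of all probe sets. GSTU26 was at 6.07, 6.58 and 6.73 in order of size at high CO2 in cat2, against 5.72 to 6.36 in short days and 4.6 to 5.11 in long days, a midpoint difference of −1.0 ± 0.18 (adjusted p = 0.000427, limma). AT1G18360 was at 9.55 to 10.11 at high CO2 in cat2, 9.27 to 9.60 in short days and 8.17 to 8.76 in long days (−0.97 ± 0.16, adjusted p = 0.000114, limma). AT1G19960 differed by −0.94 ± 0.14 and TINY2 by −0.67 ± 0.16 (adjusted p = 0.00507, limma, and 0.0588 and 0.0622 without replicates 1 and 2 of cat2 at high CO2). A call in cat2 and none in Col-0 does not show that the genotypes differ, and the test of that difference is given with the interaction below. AT2G17300, at 5.25 to 5.66 at high CO2, 6.35 to 6.59 in short days and 5.16 to 5.49 in long days in cat2, was called in cat2 alone with the high-CO2 level below the midpoint (0.39 ± 0.11, adjusted p = 0.0148, limma, and 0.149 without replicate 3 of cat2 at high CO2).

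**Figure D3:**
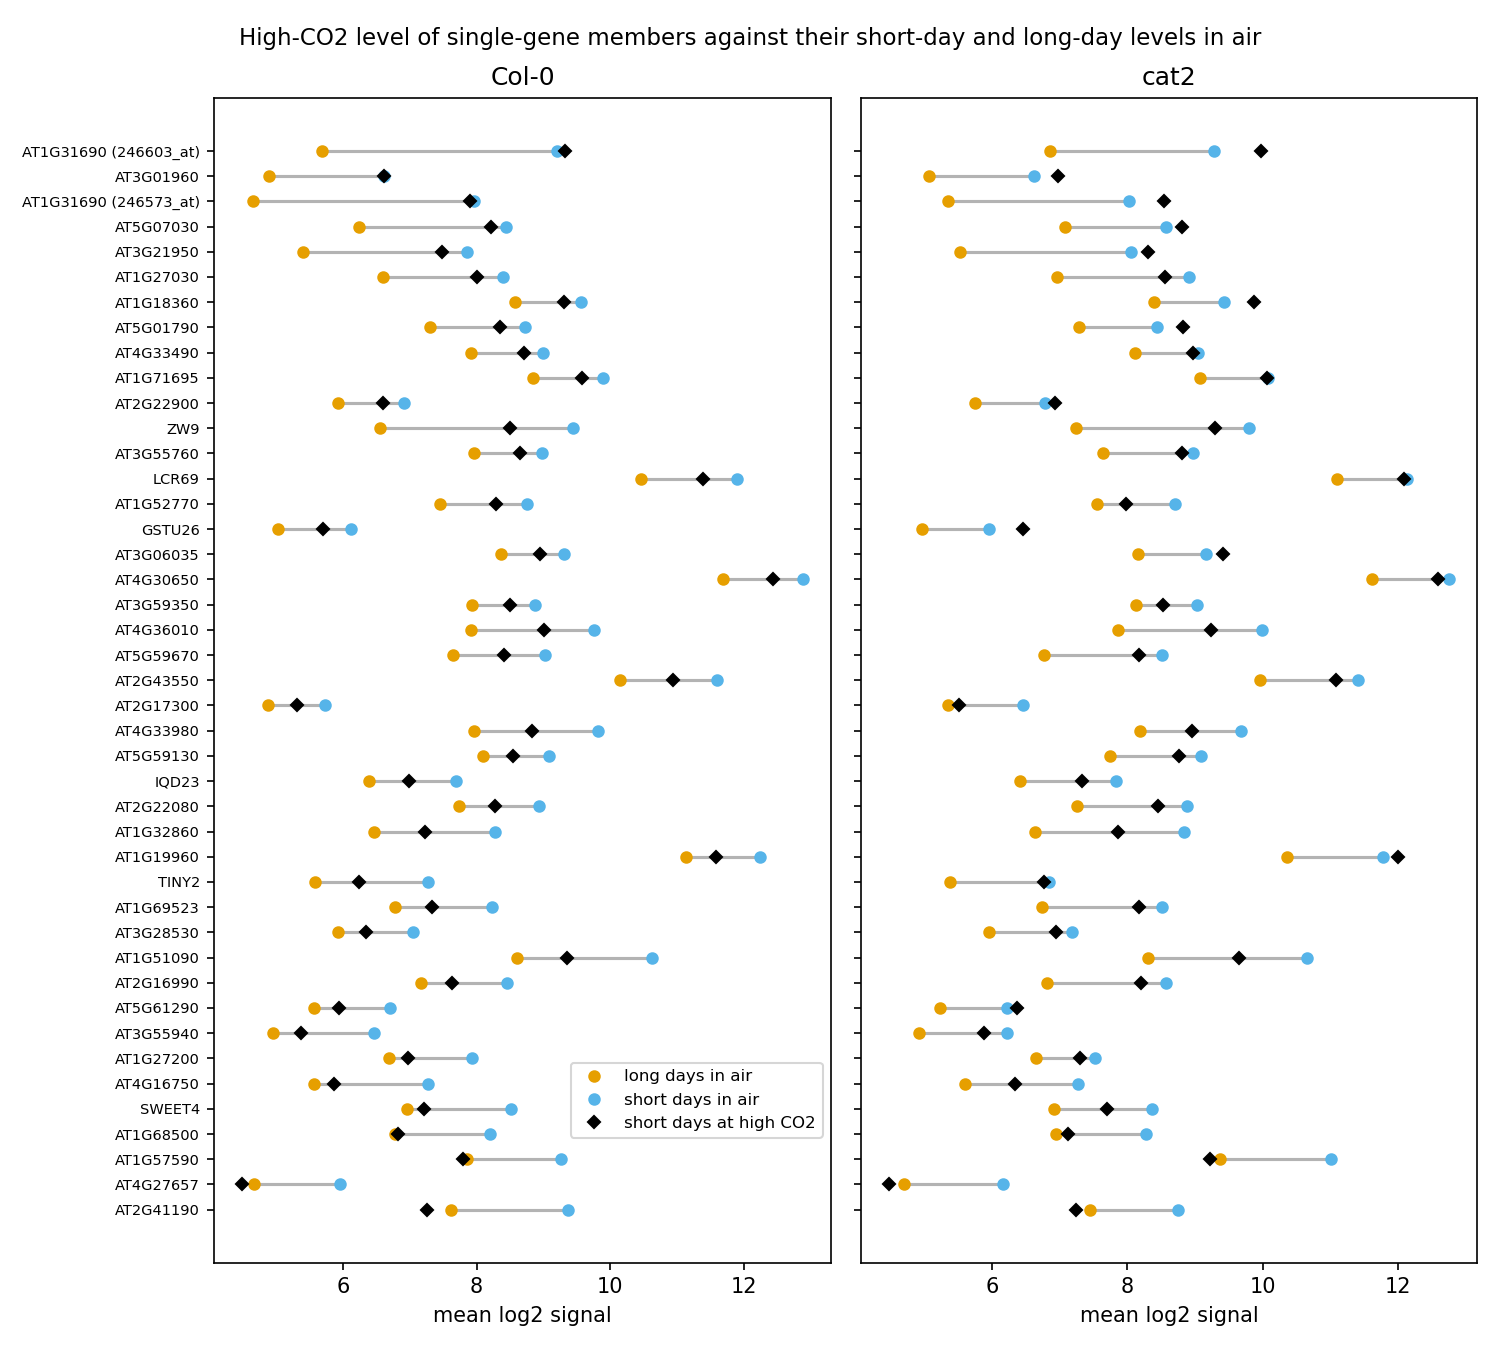
Mean log2 signal of the 43 single-gene members in long days in air (orange, 6 arrays), short days in air (blue, 6 arrays) and short days at high CO2 (black diamonds, 3 arrays), for Col-0 on the left and cat2 on the right, ordered by the Col-0 high-CO2 level relative to the other levels. In Col-0 the diamonds run from the short-day level at the top (AT1G31690) to below the long-day level at the bottom (AT2G41190), and in cat2 more of them lie at or beyond the short-day level.

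Between the genotypes at high CO2 0 of 88 members were called by limma, where 3 of 22746 probe sets (0.0132%) were called at all. An unadjusted p under 0.05 was held by 26 members, and the share of all probe sets with such a p is not given here. The cat2 minus Col-0 difference was above 0 for 78 of 88, with a median of 0.34 against 0.019 over all probe sets. The median was 0.25 without replicate 1 of cat2, which stood apart in these members, and 0.25 to 0.36 over all 6 arrays left out in turn. With the 6 arrays fitted alone and replicate numbers as a block 5 members were called.

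In air the largest genotype differences belonged to few members. These comparisons use the air arrays by which the members were chosen, so the counts are not independent of that choice. At SD2 15 of 88 were called (17.0%, against 14.2% of all probe sets), 6 higher in cat2 (6.82%, against 6.62%) and 9 lower (10.2%, against 7.56%). Without replicate 2 of cat2 9 were called. At SD4 7 were called (7.95%, against 1.69%), all higher in cat2 (1.53% and 0.163% of all probe sets were higher and lower), and 4 without replicate 1 of Col-0. Replicate numbers paired the SD4 arrays by the correlation of their residuals, and a fit of those arrays with that block called 18. At LD2 9 were called (10.2%, against 1.15%), 5 higher (5.68%, against 0.541%) and 4 lower (4.55%, against 0.607%). Without replicate 1 of Col-0, or 1 or 3 of cat2, these were 5, 3 and 5, and with only the arrays compared 4. At LD4 11 were called (12.5%, against 0.725%), 3 higher (3.41%, against 0.246%) and 8 lower (9.09%, against 0.479%). The count was 6, 5 and 6 without replicate 1 of Col-0 or replicates 2 and 3 of cat2, and 1 with only the arrays compared. Replicate numbers paired the LD4 arrays too, and a fit of those arrays with the replicate block called 13. Over the 5 conditions 64 members had no genotype call and 2 had calls in 4. Shares of all probe sets are given for each condition and not for these counts.

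The pectin acetylesterase gene AT1G57590 was 1 of those 2. In Col-0 it read 7.91, 7.44 and 8.03 at high CO2, 9.13, 9.0 and 9.77 at SD2, 9.11, 9.20 and 9.32 at SD4, 8.23, 7.80 and 7.62 at LD2, and 8.03, 7.97 and 7.46 at LD4. In cat2 it read 9.20, 9.04 and 9.43, then 11.22, 11.13 and 10.46, then 11.44, 10.80 and 11.01, then 9.82, 9.12 and 9.76, then 9.91, 9.25 and 8.39. Every cat2 array lay above every Col-0 array of the same condition. The differences were 1.63 ± 0.30 at SD2 (SE, adjusted p = 0.000583, limma), 1.87 ± 0.30 at SD4 (adjusted p = 0.000299), 1.68 ± 0.30 at LD2 (adjusted p = 0.00341) and 1.37 ± 0.30 at LD4 (adjusted p = 0.0288). At high CO2 the difference was 1.43 ± 0.30 (adjusted p = 0.113, limma). The LD4 call was lost with only the arrays compared (adjusted p = 0.333) and kept with those arrays and the replicate block (adjusted p = 0.0236). It was also lost without replicates 1 or 3 of Col-0 or 1 or 2 of cat2 (adjusted p = 0.0636, 0.107, 0.0967 and 0.124, limma).

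Probe set 263184_at was the other, and it had the largest differences. In Col-0 it read 5.38, 5.22 and 4.77 at high CO2, 6.83, 6.45 and 6.27 at SD2, 6.57, 6.61 and 6.74 at SD4, 4.62, 5.08 and 4.92 at LD2, and 5.27, 5.85 and 4.90 at LD4. In cat2 it read 6.0, 5.79 and 5.51, then 11.15, 11.27 and 10.67, then 10.97, 10.43 and 10.88, then 7.83, 6.59 and 6.92, then 6.81, 7.05 and 6.63. The cat2 arrays were thus high in short days in air above all. The genotype difference was 4.51 ± 0.26 at SD2 (adjusted p = 8.41e-12, limma), 4.12 ± 0.26 at SD4, 2.24 ± 0.26 at LD2 and 1.49 ± 0.26 at LD4 (adjusted p = 0.00574, and 0.117 with only the arrays compared). Probe set 259705_at differed by 3.04, 3.01 and 1.09 at SD2, SD4 and LD2, and 263823_s_at, which reads several genes, by 2.63 and 2.38 at SD2 and SD4. In Col-0 259705_at was at 5.65 to 6.62 in short days and 4.88 to 5.54 in long days, and in cat2 at 8.98 to 9.75 and 5.19 to 6.81. Probe set 263823_s_at was at 5.95 to 6.12 and 4.72 to 5.31 in Col-0, and at 7.96 to 9.12 and 5.12 to 5.91 in cat2. The LD2 call of 259705_at was lost without replicates 2 or 3 of Col-0 or 1 or 3 of cat2, and with only the arrays compared (adjusted p up to 0.19, limma). These 3 were the members whose day-length difference, averaged over both times, was larger in cat2 by over 2 log2 units. That excess is computed from the same group means and is not a separate result.

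AT1G19960, with no role given, was lower in cat2. In Col-0 it read 12.23, 12.13 and 12.47 at SD2, 12.19, 12.15 and 12.30 at SD4, 11.26, 10.83 and 10.94 at LD2, and 11.56, 11.15 and 11.08 at LD4. In cat2 it read 11.82, 11.60 and 11.54, then 11.89, 11.92 and 11.87, then 10.15, 10.20 and 10.30, then 10.83, 10.59 and 10.04. The cat2 arrays lay below those of Col-0 in each of these conditions. The differences were −0.62 ± 0.18 at SD2 (adjusted p = 0.0232, limma), −0.79 ± 0.18 at LD2 (adjusted p = 0.0279) and −0.78 ± 0.18 at LD4 (adjusted p = 0.0407). Without single arrays the SD2 call was lost for replicate 3 of Col-0 and 2 and 3 of cat2, the LD2 call for replicate 1 of Col-0 and each of cat2, and the LD4 call for replicate 1 of Col-0 and 2 and 3 of cat2, with adjusted p up to 0.258. At LD4 it was also lost with arrays centred on their median (adjusted p = 0.0566) and with only the arrays compared (0.366), and kept with those arrays and the replicate block (0.0394).

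AT2G17300 was higher in cat2 by 0.79 ± 0.14 at SD2 (adjusted p = 0.000521, limma) and 0.69 ± 0.14 at SD4 (adjusted p = 0.00599). Its SD4 call was lost without replicate 1 of Col-0 or 3 of cat2 (adjusted p = 0.0512 and 0.0592, limma). TINY2 was lower by −0.68 ± 0.21 at SD2 (adjusted p = 0.0302, limma). That call was lost in 4 of the 6 fits without a single array, for replicates 1 and 3 of Col-0 (adjusted p = 0.08 and 0.1) and 2 and 3 of cat2 (0.0761 and 0.101). Also lower were the receptor kinase gene AT5G59670 by −1.01 ± 0.23 at LD2 (adjusted p = 0.023, and 0.059 with only the arrays compared) and AT4G30650 by −0.40 ± 0.08 at LD4 (adjusted p = 0.015, and 0.189 with only those arrays and the replicate block). The first call was lost without replicates 1 or 2 of Col-0 or 1 or 3 of cat2 (adjusted p up to 0.149, limma), and the second without replicate 1 of Col-0 or 2 of cat2 (0.105 and 0.106). Probe set 245928_s_at had the lowest difference at LD2, −3.37 ± 1.13 (adjusted p = 0.17, limma), and its arrays spread widely, at 8.87, 9.89 and 7.73 in Col-0 and 4.29, 4.08 and 8.02 in cat2.

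**Figure D4:**
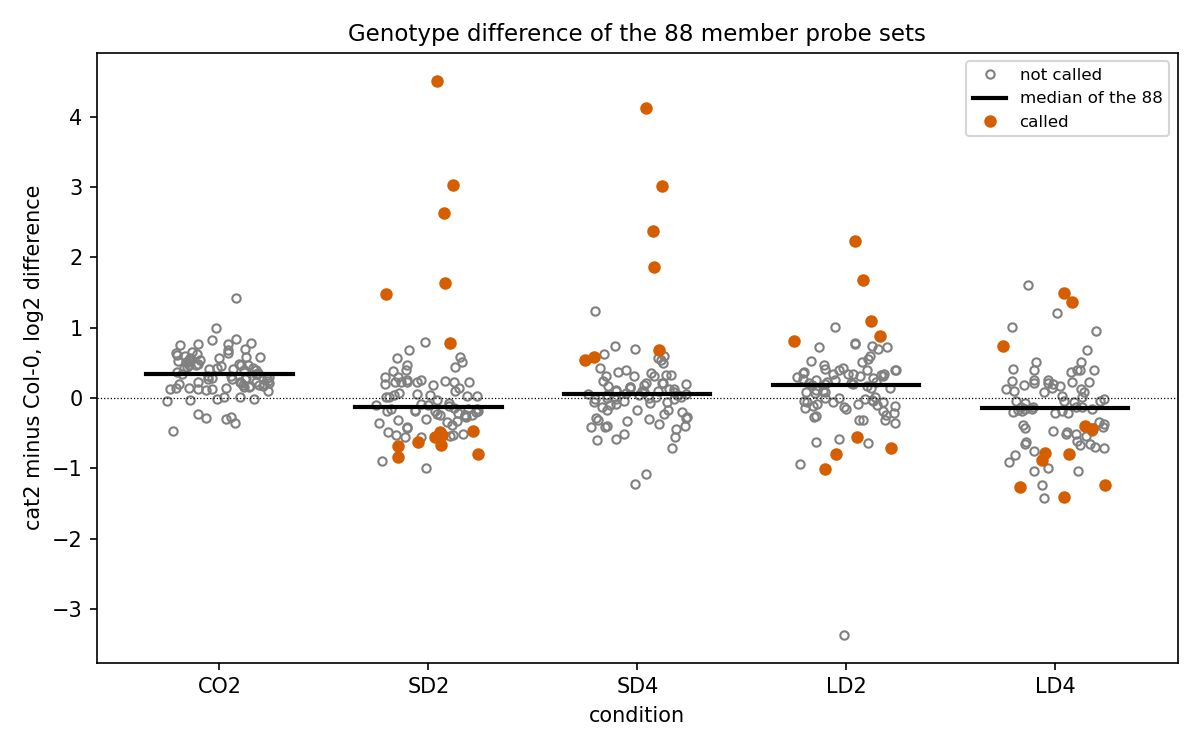
Log2 difference of cat2 minus Col-0 for each of the 88 members (points) in each condition, with the median (bar) and the members called by limma with Benjamini-Hochberg adjustment over all probe sets (filled orange). The median is highest at high CO2, 0.34, where 0 are called, and the few members far above 0 in air are high in short days.

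Whether the change from high CO2 to the 4 air groups differed between genotypes was tested by an interaction. It was called for 5 of 88 members (5.68%, against 0.919% of all probe sets), 3 higher in cat2 (3.41%, against 0.642%) and 2 lower (2.27%, against 0.277%). The count was 9, 9 and 8 without replicate 2 of Col-0 at SD2, replicate 3 of Col-0 at LD4 and replicate 3 of cat2 at LD2. The single gene called was AT1G19960, at −1.05 ± 0.20 (adjusted p = 0.00704, limma). At high CO2 it read 11.92, 11.23 and 11.59 in Col-0 and 11.98, 11.72 and 12.30 in cat2. In Col-0 its short-day arrays in air all lay above these and its long-day arrays overlapped them. In cat2 the short-day arrays overlapped them and the long-day arrays all lay below. The others were 263184_at (2.45), 263823_s_at (1.83), 259705_at (1.73) and 254662_at (−0.47). The call of 254662_at (adjusted p = 0.0447, limma) was lost under 26 of 35 alternatives, with adjusted p up to 0.217, and the calls of the other 4 under none. Over the 88 the interaction was below 0 for 74, with a median of −0.35 against −0.024 over all probe sets. That median ranged from −0.27 to −0.43 over single arrays left out. The genotype difference at high CO2 (median 0.338) enters this interaction with its sign reversed, so it is not a separate result. In air the median genotype difference was −0.124, 0.053, 0.185 and −0.141 at SD2, SD4, LD2 and LD4.

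Between 2 and 4 days, averaged over both day lengths, 1 of 88 members was called in Col-0 (1.14%, against 0.356% of all probe sets) and 1 in cat2 (1.14%, against 0.699%). Probe set 253879_s_at fell by 0.50 in Col-0 (adjusted p = 0.042, limma) and 246481_s_at by 0.28 in cat2 (adjusted p = 0.0398). With the replicate block 0 members were called in either genotype, as without most of the single arrays left out in turn, and in Col-0 5 were called without replicate 1 at LD4. Unadjusted p was under 0.05 for 13 and 19 members, and the share of all probe sets with such a p is not given here. The median change of the 88 was −0.005 in Col-0 and −0.08 in cat2.

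Of other genes of the clock, COR27 met the same threshold and was left out by name, with differences of −2.22 and −2.49 in Col-0 and −1.15 and −2.15 in cat2 after 2 and 4 days. COR27 and COR28 are related genes. Long-day minus short-day differences of genes outside the 88 were tested by limma in the same fit, which called 11.8% and 13.5% of all probe sets in Col-0 after 2 and 4 days and 16.1% and 11.8% in cat2. The list of evening-phased clock genes held 14, of which these and GI had a probe set of their own. GI, a clock gene that peaks toward the end of the day, differed by −0.22 and −0.61 in Col-0 and −0.40 and −0.15 in cat2, called only in Col-0 after 4 days (adjusted p = 0.0153, limma). RVE6, the only measured gene of 14 on the morning and daytime list, differed by −0.62, −0.20, −0.57 and −0.74 in the same order, and was lower by the test in 3 of the 4. The 2 measured genes of 19 in photoperiodic flowering, CDF5 and SMZ, were called in none.

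Of 32 genes on the list for abscisic acid, cold and dehydration 4 had a probe set of their own in this annotation. These were COR15A, COR15B, COR47 and LTI30, and all 4 were lower in all comparisons and left out by name. The sugar starvation genes AKINBETA1 and AT3G15450, 2 measured of 17, were higher in long days by 0.76 and 1.17 in Col-0 after 2 days, 1.27 and 2.34 after 4 days, and 1.07 and 2.14 in cat2 after 4 days. In cat2 after 2 days they differed by 0.27 and 0.31, which was not called. Of the shade and growth list 3 of 15 were measured, IAA29, XTH33 and EXPA8, and 1, 2, 2 and 2 of them were higher in long days in the order used above, with none lower. SWEET11, a sucrose exporter gene and 1 of 2 measured of 11 starch and sugar export genes, was higher in 3 of the 4 (0.67, 0.44 and 0.56, with 0.36 in cat2 after 2 days not called). Of 3 measured genes of 11 of the light-harvesting antenna, LHCB4.2 was higher in the same 3, and the pigment gene DFR, the only measured of 11, was lower in Col-0 after 4 days by −3.34 (adjusted p = 0.0116, limma) and not called in the others.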

How the data were processed

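The deposited values are log2 signals per probe set. Per the submitters' processing notes the authors used RMA and affy to make them, and which versions they ran is not given in the sources used here. Such values are background-corrected, quantile-normalized and summarised over probes, so they are relative to the other arrays, and the number of arrays limits their precision. The 64 control probe sets were set aside. The members and gene lists were chosen with earlier results of these data known.

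A mean for each of 10 groups was fitted to 30 arrays with limma 3.58.1 (R 4.3.3, lmFit and eBayes), with Benjamini-Hochberg adjustment over 22746 probe sets. The comparisons tested were the 10 that are not long-day minus short-day differences, and the fit was tested on simulated data. Those between genotypes in air use the arrays on which the members were chosen, so they are not independent of the choice. Values or ranges over arrays were given by rule for the 12 single genes of most negative mean difference, members of a list, up to 4 called single genes in each direction for a comparison, and the extremes in genotype. Members nearest the threshold were given by their differences. LCR69, AT3G55760, SWEET4, GSTU26, AT1G18360, 247717_at and 245928_s_at were added outside that rule after their values had been seen. Residuals of arrays with the same replicate number correlated above 0.1 in every pair for the genotypes at SD4 (0.62, 0.31 and 0.63) and LD4 (0.44, 0.45 and 0.22), and in no other comparison. The labels do not say what such arrays share. The alternatives were a replicate block, only the arrays compared, another scaling, a filter on dim probe sets, trend and robust options, other thresholds and single arrays left out. Python 3.11.15 with pandas 2.3.3, numpy 2.4.6 and matplotlib 3.10.9 served for summaries and plots. Gene order came from RefSeq's TAIR10.1 table.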

Additional observations from a re-analysis of the deposited data

Results flagged for a closer look

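The change from high CO2 to air differed between cat2 and Col-0, by the interaction test in limma, for 5 of the 88 members (5.68%, against 0.919% of all probe sets). The interaction was 2.45 for probe set 263184_at (adjusted p = 2.14e-05), 1.83 for 263823_s_at (adjusted p = 0.000134) and 1.73 for 259705_at (adjusted p = 0.0016), each with the larger rise in cat2. It was −1.05 for AT1G19960 (adjusted p = 0.00704) and −0.47 for 254662_at (adjusted p = 0.0447), whose call was lost under 26 of 35 alternatives. The air groups average short and long days, while the high-CO2 plants had short days only.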

How the results depend on the processing

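Counts are of called members among the 88. With only the arrays compared and the replicate block, 5 in place of 0 were called between genotypes at high CO2 and 18 in place of 7 at SD4, and 0 in place of 1 for time in Col-0, with the other counts within 1.5 times. With only the arrays compared 4 in place of 9 were called at LD2, 1 in place of 11 at LD4 and 0 in place of 1 for time in Col-0. The replicate block in the fit of all arrays gave 0 in place of 1 for time in Col-0 and in cat2, and for time in cat2 centring gave 0 and a mean log2 of at least 5 gave 2. A threshold of −1 left 51 members and of −0.6 gave 181. Leaving out single arrays gave 9 to 15 calls at SD2, 4 to 7 at SD4, 3 to 7 at LD2, 5 to 14 at LD4, 8 to 27 for the midpoint in Col-0 and 36 to 50 in cat2, 0 to 5 and 0 to 1 for time in Col-0 and cat2, and 4 to 9 for the interaction. Members numbered 79 to 97, and at high CO2 0 were called each time. Of the values of named members under these alternatives 864 kept direction and side of the threshold, 106 kept direction and lost the call, and 0 reversed. The causes of these moves were not tested. The paired fit could not be tried apart for the interaction, whose arrays are all 30.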
